A study of Mus musculus with 72 samples.

Results

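The daily rhythm of gene expression in the suprachiasmatic nucleus (SCN), the hypothalamic pacemaker, was examined in mice that ate a tryptophan-free diet under a cycle of light and dark, called -Trp LD. These were 18 of the 72 SCN libraries of the series, with 3 libraries at each of 6 times of day 4 h apart, counted as zeitgeber time (ZT) from lights on at ZT0, with lights off at ZT12. The mice were male C57BL/6, 8 weeks of age, and had 1 week under the light schedule before 2 weeks of diet. The other groups used here were Ctrl LD, which ate a control diet matched for nitrogen under the same light cycle, and -Trp DD, which ate the tryptophan-free diet in constant darkness, where time is counted as circadian time (CT). Each had 18 libraries as well. All animals were of wild-type stock, with no transgene named, and the study gives mice as the replicates of this experiment. The labels do not tie single libraries to animals, so the p-values measure the spread between libraries.

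The members were not chosen by the names of their columns. In the control groups, the values printed with the study equalled those of deposited columns of another name, at a shift of 12 columns, and for -Trp LD this shift was continued. All 18 columns of Ctrl LD and all 18 of Ctrl DD could be placed in this way by equal values, while the placing of the -Trp groups could not be checked. By their column names, 12 of the 18 members would be Ctrl LD at 0 to 12 h and 6 would be -Trp DD at 16 and 20 h. Every member's named time is 8 h earlier than its placed time. The diet, the light schedule and the clock times given here therefore all rest on the placing. With the columns taken as named, 617 genes oscillated in -Trp LD, of which 39 are among the 1846 described here.

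The SCN keeps daily time through a loop in which CLOCK and BMAL1 (the product of Arntl) drive the Period and Cryptochrome genes, whose proteins then repress their own transcription. A second loop of REV-ERB and ROR nuclear receptors times Arntl itself, and output factors such as DBP carry the rhythm to other genes. Besides its own clock, brain tissue is exposed to daily swings in body temperature, corticosterone, activity and feeding, each with known target genes.

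The measurements were FPKM, a fragment count scaled to transcript length and sequencing depth, summing to between 419826 and 524705 per library, with 17931 to 18463 rows above 0. The number of reads behind a value is unknown. The tissue held its markers unevenly. Summed over 9 SCN markers, of which Avp is by far the largest, the level ran from 53.5 to 1005 FPKM with a median of 355, and the lowest was a ZT20 library (replicate 3), in which Six6, an SCN transcription factor, stood at 0.0822 FPKM against up to 2.30 elsewhere. Markers of the neighbouring hypothalamus summed to between 454 and 3509 FPKM and blood markers to between 192 and 2071 FPKM. Their part in the results below was not tested. Fewer cells of a type and less RNA per cell cannot be told apart in such bulk samples.

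Genes with a 24 h rhythm were sought with JTK_CYCLE, a rank test that compares the order of the 18 values with cosine curves of different phase, at the study's threshold of p under 0.05. Of 24883 rows, 1846 oscillated (7.42%). With a mean of at least 0.5 FPKM required, 1578 of 14174 did (11.1%). After Benjamini-Hochberg adjustment 127 remained of the 20616 rows above 0 (0.616%). A cosine curve fitted with limma to log2(FPKM + 0.5) called 390 of 14174 genes at an adjusted p under 0.05 (2.75%), and 388 of these 390 were also among the JTK_CYCLE calls. The cosine fit also gave each gene's amplitude, which is the distance from the mean to the peak on the log2 scale, and its peak time. Rhythms were shallow. The median amplitude was 0.19 over the 1578 genes, against 0.10 over all 14174 genes fitted, and 35 of the 1578 reached 0.50. The median called gene was 1.30-fold higher at its peak than at its trough.

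Peak times fell into a daytime and a night-time cluster. By the lag of JTK_CYCLE, 777 of the 1846 genes (42.1%) peaked at ZT6 to ZT10 and 524 (28.4%) at ZT18 to ZT22, against 273 (14.8%) at ZT0 to ZT4 and 272 (14.7%) at ZT12 to ZT16. Among genes of at least 0.5 FPKM the shares of all tested were 4.46%, 3.49%, 1.53% and 1.65% in the same order. These 4 shares, with the 11.1% of JTK_CYCLE and the 2.75% of limma over all peak times, are the background for the gene lists below. Lags ran later than the fitted peaks, by a median of 1.06 h, so the peak times given for single genes are those of the cosine fit. Genes of the ZT12 to ZT16 window had the lowest median amplitude, 0.15 against 0.19 to 0.20 in the others, yet held 16 of the 35 genes whose amplitude reached 0.50. They were also the most abundant, with a median of 12.4 FPKM against 3.64 to 8.07 FPKM.

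**Figure D1:**
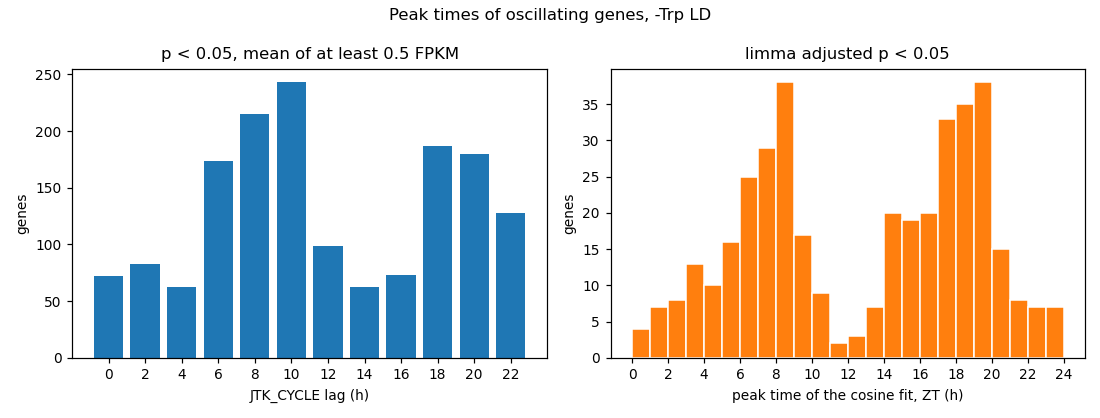
Number of oscillating genes by time of day in -Trp LD: left, by JTK_CYCLE lag in steps of 2 h (1578 genes with p under 0.05 and a mean of at least 0.5 FPKM); right, by the peak time of the cosine fit in bins of 1 h (390 genes with an adjusted p under 0.05). Both counts are high in the second part of the day and in the second part of the night, with fewer genes at dawn and around dusk.

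Within the clock itself, 6 of 30 genes oscillated (20.0%, against 11.1% of all genes tested), and the Period and Cryptochrome genes were not among them. Called genes were Arntl among 3 activators, none of 5 repressors, Nr1d1 among 5 genes of the REV-ERB and ROR loop, 4 of 7 output factors and none of 10 regulators. In limma at an adjusted p under 0.05 the counts were 1, 0, 1, 2 and 0 in the same order. Without the ZT20 library of low SCN markers, JTK_CYCLE also called Per1 among the repressors and Usp2, a deubiquitinase, among the regulators.

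Nr1d1 encodes REV-ERB alpha, the repressor of Arntl, and lies on chromosome 11 at 98767932 to 98775333 (GRCm38, the assembly also called mm10). Its values were 28.2, 28.1 and 28.2 FPKM at ZT0, 38.3, 35.6 and 35.7 at ZT4, 34.7, 36 and 42.7 at ZT8, 30.3, 35.2 and 35.0 at ZT12, 28.3, 25.8 and 29.5 at ZT16, and 25.9, 28.2 and 28.0 at ZT20. Every library at ZT4 and ZT8 was above every library at ZT0, ZT16 and ZT20. The fitted peak was at ZT7.4 ± 0.58 h (SE) with an amplitude of 0.25 ± 0.04, and JTK_CYCLE gave an exact p of 0.000265 (adjusted p = 0.0430).

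Dbp, which encodes a bZIP activator of output genes, had the largest amplitude of the clock genes. It stood at 18.8, 19.4 and 19.1 FPKM at ZT0, 28.1, 25.6 and 23.3 at ZT4, 34.1, 29.3 and 39.7 at ZT8, 24.9, 43.2 and 42.5 at ZT12, 23.7, 14.9 and 22.4 at ZT16, and 13.5, 17 and 25.8 at ZT20. The day libraries from ZT8 were above those of ZT0 without overlap, while 1 library at ZT12 and 1 at ZT20 lay within each other's range. It peaked at ZT9.2 ± 0.75 h with an amplitude of 0.52 ± 0.10, a 2.05-fold difference between peak and trough (limma adjusted p = 0.0209).

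Ciart, also known as Chrono, a repressor of CLOCK and BMAL1, followed Dbp closely. Its means were 6.49 ± 0.99 (SD, n = 3) FPKM at ZT0, 9.48 ± 0.43 at ZT8, 9.78 ± 1.4 at ZT12 and 5.82 ± 0.20 at ZT20. The peak was at ZT9.7 ± 0.61 h and the amplitude 0.35 ± 0.05 (limma adjusted p = 0.00533).

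Arntl ran in the opposite phase. It stood at 7.53, 9.98 and 7.98 FPKM at ZT0, 7.44, 7.27 and 8.17 at ZT4, 6.61, 6.33 and 7.64 at ZT8, 5.90, 4.65 and 4.88 at ZT12, 8.03, 8.58 and 7.62 at ZT16, and 8.70, 7.44 and 9.12 at ZT20. All ZT12 libraries were below all others. The peak was at ZT22.4 ± 0.84 h with an amplitude of 0.28 ± 0.06 (limma adjusted p = 0.0424).

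Tef and Nfil3, an activator and a repressor that bind the same sites as DBP, peaked at night. Tef rose from 58.8 ± 2.3 FPKM at ZT4 to 75.2 ± 11 at ZT20, with a peak at ZT17 ± 1.0 h (JTK_CYCLE exact p = 0.00291). Its highest value, 87.8 FPKM, was in the ZT20 library of low SCN markers. Other ZT20 libraries were at 71.4 and 66.4 FPKM, against 75.5, 69.7 and 75.1 at ZT16. Nfil3 was lowest at ZT8, 3.99 ± 0.28 FPKM, and highest at ZT16, 6.08 ± 0.89, with a peak at ZT18.7 ± 0.97 h (JTK_CYCLE exact p = 0.00576). Neither passed limma's adjusted threshold, with adjusted p of 0.109 and 0.0851. Both have lower amplitudes than Dbp, at 0.18 and 0.21.

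Per1 ranged over time points from 8.33 ± 0.36 FPKM at ZT4 to 10.6 ± 0.88 at ZT12 (JTK_CYCLE exact p = 0.0724). Per2 was between 2.89 ± 0.53 and 3.71 ± 0.27 FPKM at all times (JTK_CYCLE exact p = 1). Cry1 was highest at ZT16, at 9.91 ± 1.1 FPKM, against 7.65 ± 0.60 at ZT0 (JTK_CYCLE exact p = 0.143). The fitted amplitudes of the 5 repressors were between 0.02 and 0.15. Npas2, a partner of BMAL1 related to CLOCK, had 1 library at ZT20 at 8.68 FPKM and 1 at ZT0 at 5.98, while all others were at or below 3.13, and it was not called (JTK_CYCLE exact p = 0.0568).

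**Figure D2:**
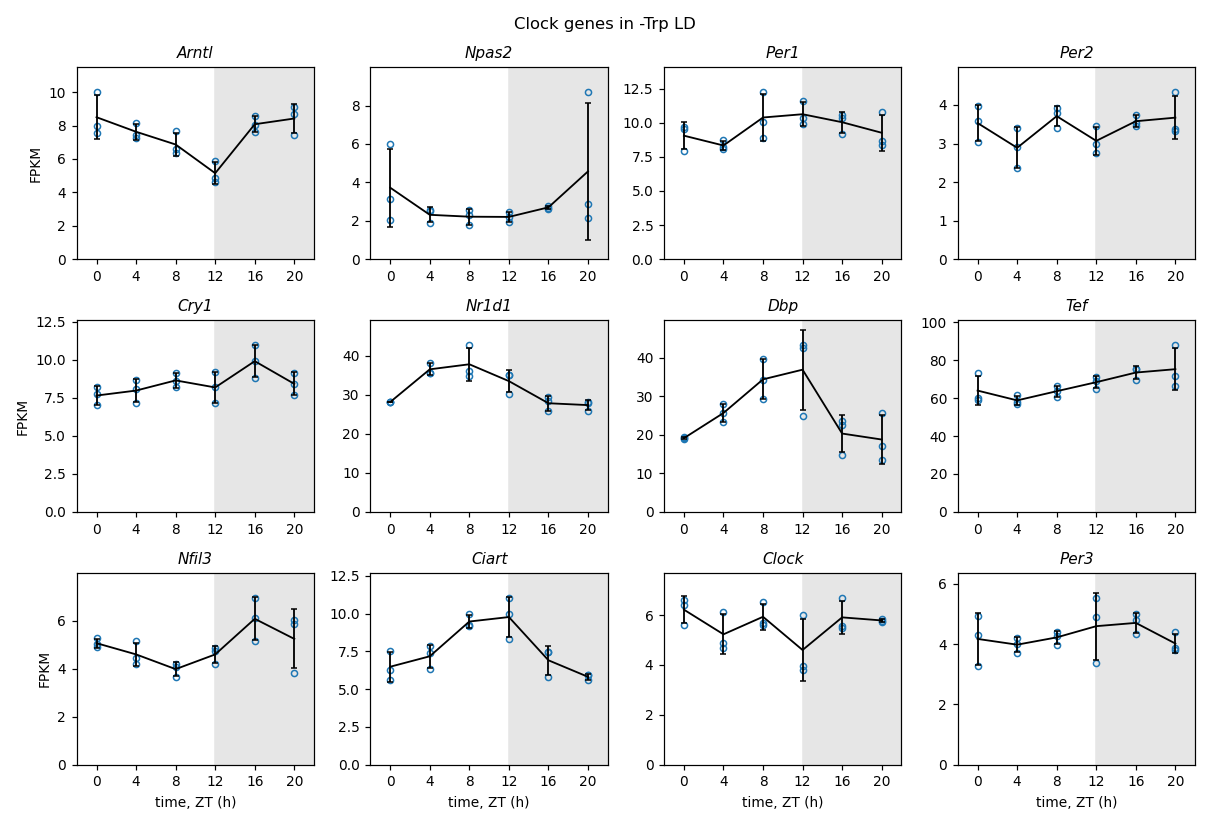
FPKM of 12 clock genes by time of day in -Trp LD; open circles are single libraries, lines and bars are means and SD of 3 libraries, and grey marks the dark phase. Nr1d1, Dbp and Ciart are highest between ZT4 and ZT12 and Arntl is lowest at ZT12, while Per2 stays between 2.35 and 4.32 FPKM in all libraries.

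The peptides by which SCN neurons signal were not called either, with 0 of 12 neuropeptides by JTK_CYCLE and 0 by limma at an adjusted p. The counts were the same for 12 identity factors. Over all genes tested the shares were 11.1% by JTK_CYCLE and 2.75% by limma, so counts of 0 in lists this short tell little. The median amplitudes of the neuropeptides and identity factors were 0.27 and 0.14, against 0.10 over all genes, but scatter between libraries also raises a fitted amplitude. Avp ranged from 41.3 to 991 FPKM among single libraries (JTK_CYCLE exact p = 0.0916) and Vip from 4.03 to 30.3 (JTK_CYCLE exact p = 1). Within ZT12 alone the SD of Avp was 354 FPKM around a mean of 595. Of the 10 signalling receptors and regulators measured, Rasl11b, a small GTPase-like protein, was called (10%, against 11.1% of all genes). Avpr1a and Rasd1 were called as well when the ZT20 library of low SCN markers was left out.

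Short stretches of 5 promoters show the elements through which the clock and heat shock factor are known to act. They are RefSeq sequences (GRCm38.p6), written from 5′ to 3′ on the gene's strand, and capitals mark the elements found. Ciart and Per1 are shown for the E-box (CACGTG), the site of CLOCK and BMAL1, Nfil3 and Arntl for the core of the REV-ERB and ROR element (TAGGTCA), and Hsph1 for the heat shock element.
Ciart, chr3:95882229-95882478, minus strand: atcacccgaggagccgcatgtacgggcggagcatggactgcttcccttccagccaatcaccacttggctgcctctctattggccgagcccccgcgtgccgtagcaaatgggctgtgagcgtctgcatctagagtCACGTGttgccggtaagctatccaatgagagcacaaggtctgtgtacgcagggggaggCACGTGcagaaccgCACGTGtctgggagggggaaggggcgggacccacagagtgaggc
Per1, chr11:69098699-69098948, plus strand: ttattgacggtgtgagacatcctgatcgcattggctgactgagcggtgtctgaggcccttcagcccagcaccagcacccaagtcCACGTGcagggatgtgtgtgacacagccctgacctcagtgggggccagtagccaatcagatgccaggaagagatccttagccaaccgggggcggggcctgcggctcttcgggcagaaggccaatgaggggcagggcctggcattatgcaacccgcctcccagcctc
Nfil3, chr13:52981040-52981289, minus strand: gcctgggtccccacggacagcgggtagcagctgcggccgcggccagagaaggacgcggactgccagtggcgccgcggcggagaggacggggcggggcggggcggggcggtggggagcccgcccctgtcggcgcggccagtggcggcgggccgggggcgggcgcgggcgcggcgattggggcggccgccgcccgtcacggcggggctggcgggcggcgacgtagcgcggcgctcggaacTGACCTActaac
Arntl, chr7:113207530-113207559, plus strand: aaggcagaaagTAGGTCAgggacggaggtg
Hsph1, chr5:149636287-149636316, minus strand: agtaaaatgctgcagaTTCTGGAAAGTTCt

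The Ciart stretch holds 3 E-boxes and that of Per1, in 1 of the gene's listed promoters, holds 1. Ciart was called and Per1 was not. Arntl and Nfil3, which share the REV-ERB and ROR core, peaked at ZT22.4 and ZT18.7, against ZT7.4 for Nr1d1. Other named genes with this core peaked elsewhere, S100a16 at ZT2.9, Fabp7 at ZT3.3, Dhcr7 at ZT7.2 and Psmc2 at ZT12.1. Promoters, from 250 bases before to 50 after the start, were searched on both strands. An E-box stood in 8.09% of the 27025 genes with a promoter and in 11.5% of expressed ones, against 11.9%, 16.0%, 13.6% and 13.5% of the called genes of the ZT0 to ZT4, ZT6 to ZT10, ZT12 to ZT16 and ZT18 to ZT22 windows. The REV-ERB and ROR core was in 2.21% of expressed genes and in 3.31%, 2.66%, 1.70% and 3.97% of the windows in the same order. The D-box (TTATGTAA), the site of DBP and NFIL3, was in 0.69% of expressed genes and in 1.99%, 0%, 0.57% and 0.79% of the windows, which is at most 3 genes in each. The cyclic AMP element (TGACGTCA) was in 3.59% of expressed genes and in 2.46% to 4.64% of the windows. The heat shock element was in 0.59% of expressed genes and in 4 of 20 heat shock chaperone genes. These shares are descriptions of the letters in these windows. A promoter can hold more than 1 motif, and neighbouring motifs can share letters.

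The 2 cold-inducible RNA-binding proteins, Cirbp and Rbm3, had fitted peaks by day, as did Srsf5, an SR protein of splicing. The time-point mean of Rbm3 was highest at ZT12. None of the 4 CLK kinases that phosphorylate SR proteins was called. Cirbp, Rbm3 and Srsf5, 3 of the 7 genes of the list (42.9%, against 11.1% of all genes tested), were also called by limma at an adjusted p.

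Cirbp stood at 99.7, 66.4 and 76.0 FPKM at ZT0, 126, 142 and 147 at ZT4, 150, 157 and 136 at ZT8, 136, 148 and 160 at ZT12, 101, 86.6 and 114 at ZT16, and 76.5, 75.8 and 51.0 at ZT20. All libraries from ZT4 to ZT12 were above all others. The peak was at ZT8.8 ± 0.40 h and the peak level was 2.32-fold that of the trough (amplitude 0.61 ± 0.06, limma adjusted p = 0.000130).

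Rbm3 peaked later, at ZT10.7 ± 0.33 h. Its libraries were at 44.7, 31.8 and 36.5 FPKM at ZT0, 60.5, 66.3 and 62.5 at ZT4, 93.0, 85.4 and 80.1 at ZT8, 104, 73.8 and 99.7 at ZT12, 68.9, 66.1 and 78.9 at ZT16, and 46.0, 40.3 and 45.1 at ZT20. The ZT0 and ZT20 libraries were all below the rest. The amplitude was 0.65 ± 0.06 and the JTK_CYCLE exact p, 1.62e-07, was the smallest of the table, shared with Fabp7 and Nudt5.

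Srsf5 led both, with a peak at ZT5.0 ± 0.28 h. It had 146, 129 and 116 FPKM at ZT0, 163, 161 and 173 at ZT4, 145, 150 and 144 at ZT8, 107, 112 and 101 at ZT12, 84.6, 95.6 and 81.3 at ZT16, and 94.2, 84.1 and 81.3 at ZT20. Every library of the ZT0 to ZT8 times was above every later one. The amplitude was 0.49 ± 0.04 (limma adjusted p = 2.98e-06).

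Of 62 Hnrnp, Srsf and Rbm genes measured, 19 oscillated (30.6%, against 11.1% of all genes) and 10 passed limma at an adjusted p. The 19 were spread over the day, with 4, 5, 5 and 5 in the windows from ZT0 to ZT22. Hnrnpdl, an RNA-binding regulator of splicing, peaked by day at ZT7.5 ± 0.53 h, with 52.6 ± 6.8 FPKM at ZT8 and 29.4 ± 2.7 at ZT20 (JTK_CYCLE exact p = 8.21e-07). Rbm28 peaked near dawn, at ZT23.2 ± 0.69 h, with 11.2 ± 1.3 FPKM at ZT0 and 7.40 ± 0.48 at ZT8. Hnrnpm, Rbm14 and Hnrnpc, named after their values were seen, peaked at ZT19.7, ZT19.6 and ZT22.0. Thus daytime peaks were not shared by the family. Parn, a poly(A) ribonuclease, was highest at ZT8, at 12.3 ± 0.20 FPKM, against 8.89 ± 0.53 at ZT20.

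Slc7a5, the carrier LAT1 that takes tryptophan and other large neutral amino acids across membranes, was at 15.8 ± 1.5 FPKM at ZT4 and 11.5 ± 1.6 at ZT20, with a peak at ZT7.5 ± 0.79 h (limma adjusted p = 0.0303). It was 1 of 3 called genes among 16 of tryptophan metabolism and signalling (18.8%, against 11.1% of all genes). The others were Ido2, an enzyme that opens the tryptophan ring, at ZT7.4 ± 0.87 h, and Htr1b, a serotonin receptor, which peaked at ZT19.3 ± 1.0 h. Htr1b was at 2.48 to 2.77 FPKM in the ZT16 libraries and at 2.55 to 4.05 in those of ZT20, but from 0.514 to 2.66 FPKM at other times, so the times overlapped, its limma adjusted p was 0.109, and without the ZT20 library of low SCN markers, its highest value, it was not called.

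Of 37 aminoacyl-tRNA synthetases, which charge tRNAs with amino acids, 6 were called (16.2%, against 11.1%), 5 of them by day between ZT6.1 and ZT11.9, with amplitudes of 0.08 to 0.20. Lars, for leucine, was the clearest, at 12.5 ± 0.77 FPKM at ZT4 and 9.29 ± 0.85 at ZT20 (limma adjusted p = 0.0135). In sterol and fatty acid synthesis 3 of 31 genes were called (9.7%, below the 11.1% of all genes), all in the day: Nsdhl, Dhcr7 and Insig1. Nsdhl and Dhcr7 are enzymes of cholesterol synthesis and Insig1 restrains that pathway, and their amplitudes were 0.12 to 0.18.

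Proteasome subunits were called in 9 of 37 cases (24.3%, against 11.1% of all genes), with peaks from ZT9.1 to ZT13.1 and amplitudes of 0.08 to 0.19. Psma7, a core subunit, was at 159 ± 22 FPKM at ZT12 and 121 ± 11 at ZT20. None passed limma at an adjusted p, and without the ZT20 library of low SCN markers 4 were called, Psma7 being among the 5 lost.

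Around dusk, the largest amplitudes among called genes belonged to genes known to respond to glucocorticoids, the hormones whose level in nocturnal rodents rises toward the start of activity. Of 15 measured, 12 oscillated (80.0%, against 11.1% of all genes) and 11 passed limma at an adjusted p (2.75% of all genes did). Their median amplitude was 0.44. In all 12 the fitted peak lay between ZT12.5 and ZT18.0. Without the ZT20 library of low SCN markers 11 were called, Pdk4 being lost. The list holds genes known to be induced by other signals too, such as Cdkn1a, Ddit4 and Nfkbia.

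Sgk1, a kinase that regulates ion channels, stood at 7.55, 11.7 and 9.35 FPKM at ZT0, 10.2, 8.44 and 7.84 at ZT4, 17.1, 13.7 and 16.6 at ZT8, 42.6, 46.7 and 26.7 at ZT12, 46.9, 34.0 and 41.1 at ZT16, and 27.7, 12.3 and 25.2 at ZT20. The ZT12 and ZT16 libraries were above all of ZT0 to ZT8, and the ZT20 libraries overlapped both. The peak came at ZT14.5 ± 0.33 h with an amplitude of 1.19 ± 0.10, or 5.23-fold between peak and trough (limma adjusted p = 1.41e-05).

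Plin4, a lipid droplet protein, had the largest amplitude among called genes, 1.23 ± 0.13. Its values were 0.877, 1.01 and 0.989 FPKM at ZT0, 0.483, 0.671 and 0.530 at ZT4, 0.944, 1.32 and 1.39 at ZT8, 6.73, 5.43 and 3.63 at ZT12, 6.26, 3.75 and 3.61 at ZT16, and 4.18, 1.21 and 2.14 at ZT20. The ZT12 and ZT16 libraries exceeded all libraries of ZT0 to ZT8. Since Plin4 was near 1 FPKM by day, its fitted fold depends on the 0.5 FPKM that was added.

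Fkbp5, a co-chaperone that restrains the glucocorticoid receptor, was at 6.62, 7.80 and 7.64 FPKM at ZT0, 7.46, 6.87 and 6.94 at ZT4, 8.51, 9.0 and 8.71 at ZT8, 15.8, 15 and 15 at ZT12, 15.4, 12.8 and 15.6 at ZT16, and 11.4, 8.21 and 15 at ZT20. The ZT12 and ZT16 libraries lay above those of ZT0 to ZT8 without overlap. The peak was at ZT14.8 ± 0.43 h with an amplitude of 0.59 ± 0.07. Tsc22d3, which encodes the anti-inflammatory factor GILZ, peaked at ZT14.6 ± 0.45 h, with 51.7 ± 5.2 FPKM at ZT4 and 106 ± 14 at ZT16. Not called were Klf9, Mt1 and Mt2, with JTK_CYCLE exact p from 0.0724 to 0.458. Markers of other tissue moved in part with this phase. The sum of the meningeal markers was 10.7 to 50.3 FPKM at ZT12 and 9.40 to 52.1 FPKM at ZT16, with a maximum of 21.8 FPKM at the other times. The fitted peaks of the 4 blood markers lay between ZT14.4 and ZT16.7, although their sum was highest in a ZT0 library. Hcrt and Pmch, neuropeptide genes of the lateral hypothalamus, had fitted peaks at ZT15.5 and ZT14.7 with amplitudes of 2.08 and 1.91. They ranged from 0.234 to 402 and from 0.917 to 430 FPKM between libraries. In the same list of the neighbouring hypothalamus, Agrp and Pomc peaked at ZT15.3 and ZT13.0. The rest peaked elsewhere: Oxt, Trh, Gal and Ghrh between ZT8.0 and ZT11.7, and Npy and Crh at ZT19.1 and ZT20.6. None of these markers was called by JTK_CYCLE or by limma at an adjusted p, and their part in the dusk rhythms was not tested.

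Further genes of large amplitude shared this phase. Mfsd2a, the carrier of omega-3 lysophospholipids at the blood-brain barrier, rose from 8.42 ± 0.66 FPKM at ZT4 to 20.6 ± 2.6 at ZT16 (amplitude 0.67 ± 0.06, limma adjusted p = 1.41e-05). Kirrel2, an adhesion protein, was at 0.730 ± 0.12 FPKM at ZT4 and 2.84 ± 0.67 at ZT16. Sfrp5, a secreted inhibitor of Wnt, peaked earlier, at ZT11.7 ± 0.76 h, with 19.1 ± 5.3 FPKM at ZT12. Trib1, a pseudokinase, peaked at ZT13.2 ± 0.48 h, at 3.51 ± 0.41 FPKM at ZT12 against 1.65 ± 0.16 at ZT0. Among 107 genes of voltage-gated and other potassium channels, 8 were called (7.5%, below the 11.1% of all genes). Kcnn2, a calcium-activated potassium channel, was the one that also passed limma. It peaked at ZT16.0 ± 0.73 h, from 5.60 ± 0.47 FPKM at ZT4 to 8.30 ± 0.69 at ZT16.

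**Figure D3:**
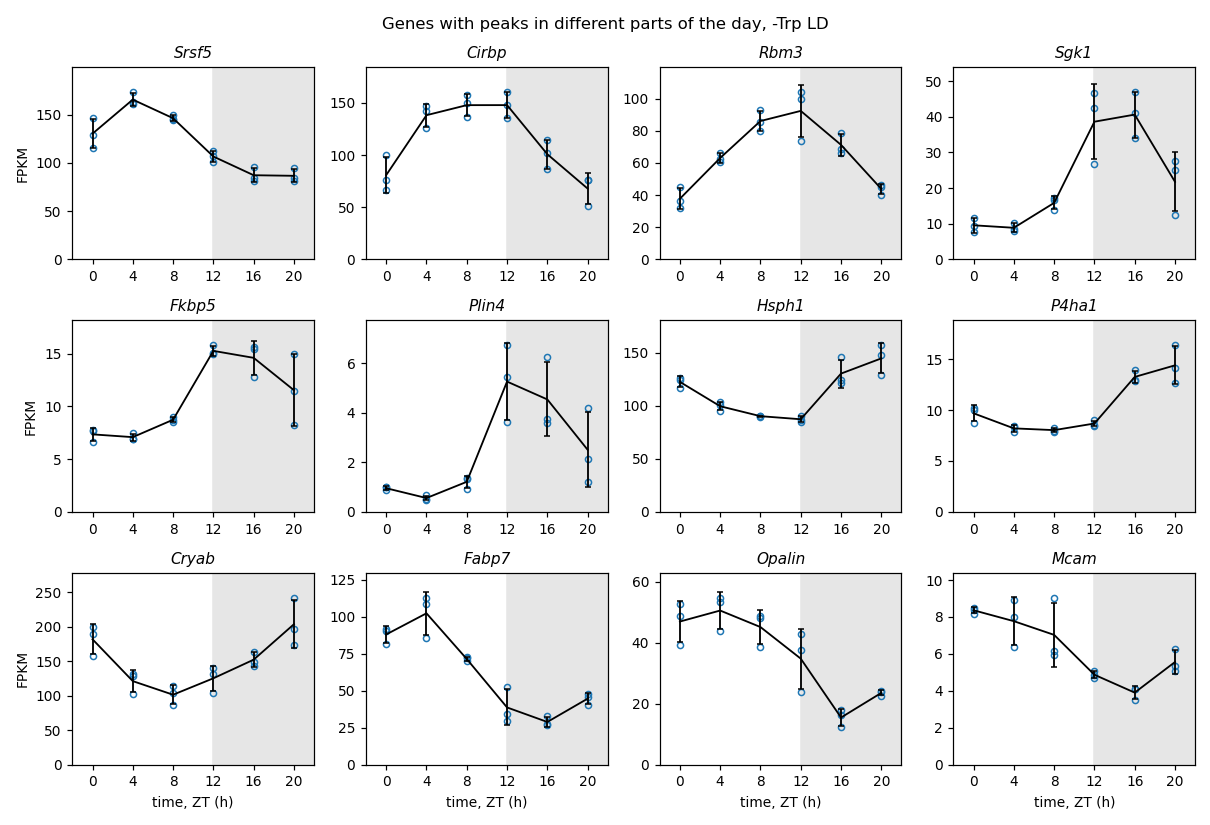
FPKM of 12 genes by time of day in -Trp LD, ordered from daytime to dusk, night and dawn peaks; open circles are single libraries, lines and bars are means and SD of 3 libraries, and grey marks the dark phase. Srsf5, Cirbp and Rbm3 have fitted peaks by day, while the mean of Rbm3 is highest at ZT12. Sgk1, Fkbp5 and Plin4 peak at ZT12 to ZT16, Hsph1, P4ha1 and Cryab at ZT20, and Fabp7, Opalin and Mcam around ZT0 to ZT4.

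In the second part of the night, protein-folding genes were highest. Of 24 genes of the heat shock list, 16 oscillated (66.7%), all in the ZT18 to ZT22 window, where 3.49% of all genes were called, and 10 passed limma at an adjusted p. Their peaks lay between ZT17.3 and ZT20.5. Without the ZT20 library of low SCN markers, 18 were called.

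Hsph1, which encodes the chaperone HSP105, was at 117, 126 and 125 FPKM at ZT0, 103, 95.2 and 100.2 at ZT4, 90.6, 89.4 and 90.4 at ZT8, 90.6, 86.2 and 85.0 at ZT12, 124, 145 and 121 at ZT16, and 147, 157 and 129 at ZT20. All libraries at ZT0, ZT16 and ZT20 were above all those of ZT4 to ZT12. The peak was at ZT20.3 ± 0.39 h with an amplitude of 0.38 ± 0.04 (limma adjusted p = 0.000110). P4ha1, a subunit of collagen prolyl hydroxylase and not itself a chaperone, had the smallest p of the list. It stood at 8.03 ± 0.20 FPKM at ZT8 and 14.4 ± 1.9 at ZT20, with a peak at ZT18.6 ± 0.39 h (JTK_CYCLE exact p = 3.76e-07).

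Cryab, the small heat shock protein alpha B-crystallin, was at 101 ± 14 FPKM at ZT8 and 204 ± 35 at ZT20, and Dnaja4, a co-chaperone of HSP70, at 13.0 ± 0.91 and 20.6 ± 0.66. Hspa1b, an inducible HSP70, was between 1.44 and 2.72 FPKM in every library from ZT0 to ZT12, then at 6.66, 6.20 and 6.63 at ZT16 and 4.98, 7.05 and 3.76 at ZT20. The 2 night times did not overlap the others. Hspa1a and Hspa1b are near-identical copies, so reads may have been divided between them, and Hspa1a peaked at ZT18.2 beside ZT17.9 for Hspa1b. Not called were 8 members, among them Hspd1, Hspe1, Bag3 and Hsp90aa1.

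Chaperones of the endoplasmic reticulum followed with smaller amplitudes. Of 19, 8 were called (42.1%, against 11.1% of all genes), 7 of them in the ZT18 to ZT22 window. At an adjusted p, 7 passed limma (2.75% of all genes did). Sdf2l1 went from 13.3 ± 1.3 FPKM at ZT8 to 22.9 ± 4.3 at ZT20 and Pdia4, a disulfide isomerase, from 24 ± 0.33 to 32.6 ± 4.5. Manf, a secreted factor of the stress response of this compartment, peaked at ZT16.8 ± 0.62 h and Calr, a lectin chaperone, at ZT20.7 ± 0.95 h. Without the ZT20 library of low SCN markers, 11 were called.

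Of 20 targets of ATF4, the factor that answers a shortage of amino acids, 6 were called (30%, against 11.1% of all genes). All 6 lay in the ZT18 to ZT22 window by lag, where 3.49% of all genes were called. Of the 20 targets, 4 passed limma at an adjusted p (2.75% of all genes did). Slc38a2, a carrier of small neutral amino acids, was highest at ZT16, at 25.1, 25.5 and 30.4 FPKM, against 16.0, 15.6 and 16.8 at ZT4, with a peak at ZT15.9 ± 0.42 h (limma adjusted p = 0.000230). Cth, an enzyme that makes cysteine, peaked at ZT17.3 ± 0.37 h with 3.46 ± 0.38 FPKM at ZT16 and 2.10 ± 0.16 at ZT8. Psph, the last enzyme of serine synthesis, was at 12.3 ± 0.47 FPKM at ZT20 and 9.13 ± 0.11 at ZT8. Slc7a11, the cystine carrier, peaked at ZT18.5 ± 0.70 h. Atf4 itself, Asns, Ddit3 and Sesn2 were not called, each with a JTK_CYCLE exact p of 1. Gpt2, a mitochondrial alanine aminotransferase outside the list, peaked with them, at ZT16.2 ± 0.40 h, with 24.2 ± 2.0 FPKM at ZT16 and 13.6 ± 0.32 at ZT4.

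**Figure D4:**
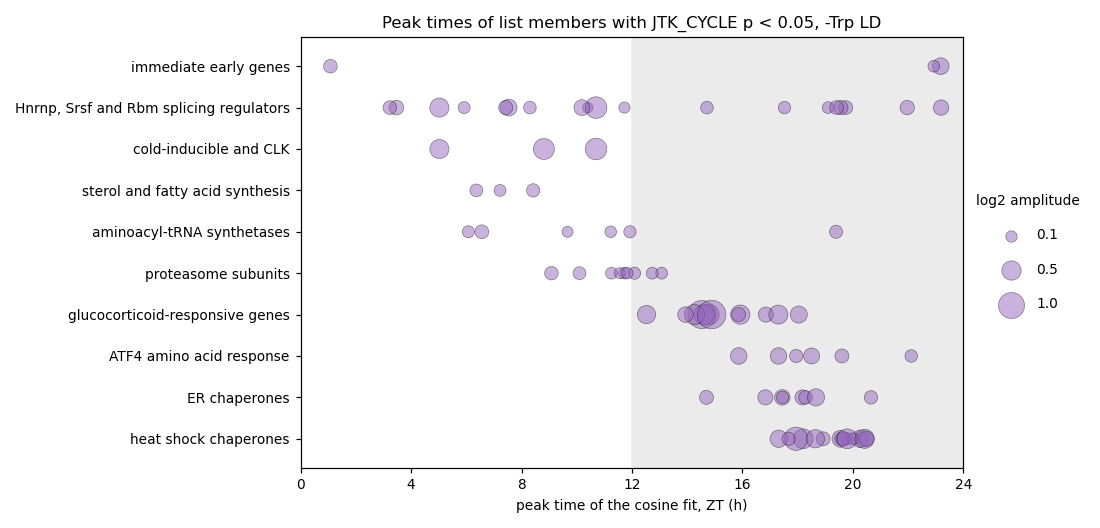
Peak time of the cosine fit for the members of 10 gene lists with a JTK_CYCLE p under 0.05 and a mean of at least 0.5 FPKM in -Trp LD; each circle is a gene, its area grows with the log2 amplitude, and grey marks the dark phase. Heat shock chaperones all peak between ZT17.3 and ZT20.5 and glucocorticoid-responsive genes between ZT12.5 and ZT18.0, whereas splicing regulators are spread over the day.

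Around the morning, Fabp7 and Opalin had large amplitudes. Fabp7, the brain fatty acid binding protein of astrocytes and their progenitors, was at 91.7, 81.5 and 90.6 FPKM at ZT0, 85.5, 113 and 109 at ZT4, 71.8, 72.5 and 69.9 at ZT8, 29.6, 34.0 and 52.5 at ZT12, 27.2, 26.6 and 32.8 at ZT16, and 40.5, 48.0 and 45.5 at ZT20. All ZT0 to ZT8 libraries were above all later ones. The peak was at ZT3.3 ± 0.28 h and the level changed 3.58-fold between peak and trough (amplitude 0.92 ± 0.07, limma adjusted p = 2.98e-06). It lies on chromosome 10 at 57784881 to 57788450. Of the 10 astrocyte markers, Fabp7 and Glul were called, but Glul peaked at ZT18.0. The sum over the astrocyte list stayed between 1756 and 2283 FPKM.

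Opalin, a membrane protein of myelinating oligodendrocytes, was at 48.8, 39.4 and 52.6 FPKM at ZT0, 53.3, 54.7 and 43.8 at ZT4, 48.0, 38.8 and 48.7 at ZT8, 23.9, 37.6 and 42.9 at ZT12, 17.8, 12.4 and 16.3 at ZT16, and 22.6, 24.2 and 23.9 at ZT20. The ZT16 libraries were below all others. It peaked at ZT4.6 ± 0.51 h with an amplitude of 0.79 ± 0.11 (limma adjusted p = 0.00123). Pllp, plasmolipin of myelin, peaked at ZT5.3 ± 0.60 h. Mag, Cnp and Ugt8a were called with Opalin among 10 oligodendrocyte markers, with fitted peaks at ZT4.6, ZT3.3 and ZT23.0. The summed level of that list was 2476 to 3317 FPKM at ZT0 and 1683 to 2271 FPKM at ZT16, and its part in these rhythms was not tested. Mbp, its most abundant member, was not called (JTK_CYCLE exact p = 0.217). Gpr17 and Enpp6 were called among 5 markers of oligodendrocyte precursors, whose sum was 21.6 to 29.6 FPKM. Gpr17 peaked at night, at ZT19.4, and Enpp6 at ZT0.1.

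Mcam, an adhesion molecule of blood vessels, was at 8.36 ± 0.17 FPKM at ZT0 and 3.91 ± 0.36 at ZT16, with a peak at ZT3.0 ± 0.49 h. S100a16, a calcium-binding protein, went from 78.8 ± 8.3 FPKM at ZT4 to 47.3 ± 9.2 at ZT16. Sox2ot, a noncoding RNA over the Sox2 locus, was highest at ZT0, 18.6 ± 1.6 FPKM, and lowest at ZT12, 11.2 ± 0.99. Of 13 immediate early genes, which report recent neuronal activity, 3 were called (23.1%, against 11.1% of all genes). These were Arc, Ier5 and Btg2, all in the ZT0 to ZT4 window by lag, with fitted peaks at ZT23.2, ZT1.1 and ZT22.9. Their JTK_CYCLE exact p were 0.0259, 0.0441 and 0.0196, and none passed limma at an adjusted p. With single libraries left out in turn, Arc was called in 14 of 18 repeats, Ier5 in 6 and Btg2 in 15. The highest values of Arc and Ier5, 9.96 and 9.51 FPKM, were in the ZT20 library of low SCN markers. Other ZT20 libraries were at 4.02 and 4.78 FPKM for Arc and at 5.05 and 5.50 for Ier5. Without the library of low SCN markers all 3 genes were still called.

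Large housekeeping and neuronal lists stayed below or near the 11.1% of all genes. None of 78 oxidative phosphorylation genes was called by JTK_CYCLE or by limma at an adjusted p, and the counts were 2 of 83 cytosolic ribosomal proteins, 6 of 77 mitochondrial ribosomal proteins, 1 of 22 glycolysis genes, 1 of 31 genes of synaptic vesicle release and 1 of 43 glutamate, GABA and glycine receptors. Ribosome biogenesis had 4 of 35, autophagy and lysosome 3 of 27, and NAD synthesis and use 1 of 15. Rps27, a called ribosomal protein gene with an amplitude of 0.82, varied widely within time points, with 45.7 ± 36 FPKM at ZT8, and its family has many near-identical copies among which reads may be divided.

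A 12 h component beside the 24 h curve was found in 0 of 14174 genes by limma at an adjusted p under 0.05 (0%), and in 450 at an unadjusted p under 0.05. Lpar1, a receptor for lysophosphatidic acid, was among the 5 with the smallest p, as was Hspa1b, with its step between ZT12 and ZT16.

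Whether the rhythm differed from that of mice on the control diet was tested in limma, by the difference of the fitted cosine curves between -Trp LD and Ctrl LD. No gene of 14202 passed at an adjusted p under 0.05 (0%), and 456 had an unadjusted p under 0.05. Fkbp5 had the smallest p. In Ctrl LD it was between 7.52 ± 0.13 FPKM at ZT20 and 10.02 ± 1.5 at ZT16. Its fitted peak there, ZT14.2, was near the ZT14.8 of -Trp LD. The amplitude was 0.13 in Ctrl LD against 0.59 in -Trp LD, a difference of 0.46 ± 0.09 (SE, 95% interval 0.29 to 0.64). The limma adjusted p of 0.426 did not pass. For Dbp the amplitude in -Trp LD minus that in Ctrl LD was -0.13 with an interval from -0.37 to 0.12, and for Nr1d1 it was -0.01 with an interval from -0.12 to 0.11. For Fabp7 the interval ran from -0.07 to 0.28. The intervals that span 0 do not show that the rhythms were alike. For other genes they lay above 0, such as Arntl (0.01 to 0.36), Sgk1 (0.11 to 0.92), Plin4 (0.16 to 0.87) and Opalin (0.09 to 0.67). The intervals are not adjusted for the number of genes. Sgk1, Plin4 and Opalin were described for their large amplitudes in -Trp LD.

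Against -Trp DD, 4 of 14403 genes differed in rhythm at an adjusted p under 0.05 (0.0278%), and 1241 at an unadjusted p under 0.05. These were Srsf5, D11Wsu47e, Ewsr1 and Nle1. Srsf5 had an amplitude of 0.49 in -Trp LD and 0.06 in -Trp DD, where its time-point means were between 159 ± 16 and 180 ± 11 FPKM, and the difference was 0.43 ± 0.05 (limma adjusted p = 3.01e-07). Ewsr1, an RNA-binding protein, and Nle1, a ribosome assembly factor, fell at night in -Trp LD, to 66.6 ± 2.5 and 4.06 ± 0.26 FPKM at ZT20. In -Trp DD they were at 95.4 ± 2.6 and 6.12 ± 0.47 FPKM at CT20. Over all times there, the means of Ewsr1 were between 91.6 ± 6.8 and 99.1 ± 4.3 FPKM. Those of Nle1 were between 5.11 ± 0.58 and 6.23 ± 0.58 FPKM. The ZT20 means of -Trp LD lay below all of these, so level and rhythm are mixed in this contrast. Cirbp, with an amplitude of 0.61 against 0.17, did not pass (limma adjusted p = 0.0508). The total FPKM of a library was 317790 to 411944 in -Trp DD and 419826 to 524705 in -Trp LD, with no overlap, so light and this difference in scale cannot be told apart.

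**Figure D5:**
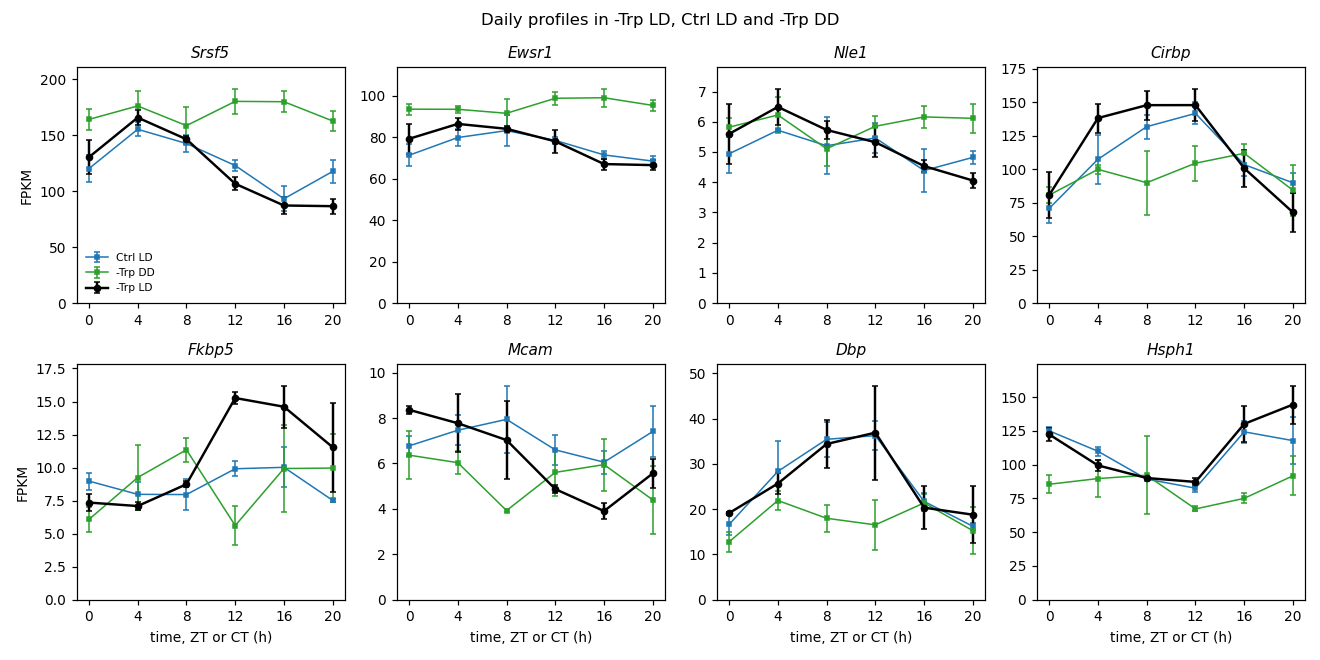
Mean FPKM by time of day in -Trp LD (black), Ctrl LD (blue) and -Trp DD (green) for 8 genes; bars are SD of 3 libraries, and time is ZT in LD and CT in DD. Mean Srsf5 and Ewsr1 are lower at ZT16 and ZT20 than at ZT4 in both LD groups, whereas the means of Srsf5 in -Trp DD lie between 159 and 180 FPKM. Mean Fkbp5 is highest at ZT12 and ZT16 in both LD groups.

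Since the placed members bear the column names of 2 groups, the 12 libraries of ZT8 to ZT20 were also tested alone. Over 14150 genes, limma found 9 that differed between these 4 times at an adjusted p under 0.05 and 1709 at an unadjusted p under 0.05. Total FPKM was 419826 to 492024 at ZT0 and ZT4 and 430911 to 524705 at ZT8 to ZT20.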

How the data were processed

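RNA of the SCN was sequenced as stranded, paired-end mRNA libraries. The submitters' processing notes name Trimmomatic, TopHat, Cufflinks and mm10, with no versions, and the paper's methods state that reads were aligned to mm10 with TopHat and FPKM computed with Cufflinks. The deposited FPKM values, 24883 rows for 24346 symbols in 4 tables, were made by the authors and were used without filtering unless stated. Depth is unknown.

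JTK_CYCLE was written anew under Python 3.11.15, using numpy 2.4.6 with scipy 1.17.1 and pandas 2.3.3, with a period of 24 h, the exact null distribution and Bonferroni adjustment over 6 lags. FPKM were divided by median-of-ratios factors, 0.5 was added and log2 taken. On these, the cosine, 12 h and group models were fitted by limma 3.58.1 (R 4.3.3), to genes whose mean reached 0.5 FPKM. Both were tested on simulated data. P-values were adjusted after Benjamini and Hochberg. Peak windows follow the JTK_CYCLE lag.

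Named genes are the clock lists, the 15 with the smallest p, the 6 of largest amplitude per window with an adjusted p under 0.05 (a window short of 6 was filled at p under 0.01), both at a mean of at least 1 FPKM, up to 4 called per list, and the 5 smallest p of each further test. Markers, list members that were not called and Hspa1a were named after their values were seen. The members and lists were chosen with earlier results of these data known. Alternatives were other pseudocounts, filters and scalings, ties kept in the JTK_CYCLE template, columns as named, the replicate number as a block, and leaving out each library. Restricting the test to ZT8 to ZT20 or to ZT0 and ZT4, and the gene lists without the ZT20 library, were chosen after seeing the data. Positions are from GENCODE M21, which holds 95.7% of the symbols, and promoters from RefSeq (95 of 124 named genes matched). Figures were drawn with matplotlib 3.10.9.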

Additional observations from a re-analysis of the deposited data

Results flagged for a closer look

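The rhythm of 4 genes differed between -Trp LD and -Trp DD in the test of the difference itself. Srsf5, the splicing factor, had a limma adjusted p of 3.01e-07. D11Wsu47e, a gene named by its chromosome, had an adjusted p of 0.0177, with an amplitude of 0.25 and a peak at ZT7.1 in -Trp LD against 0.13 and CT19.7 in -Trp DD. Ewsr1 and Nle1 both had a limma adjusted p of 0.0258. The 3 smaller amplitudes differed by 0.12 to 0.17 on the log2 scale.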

How the results depend on the processing

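The 1846 genes called by JTK_CYCLE became 127 after Benjamini-Hochberg adjustment and 617 with the columns as named. Limma, with time as a factor and an adjusted p, called 9 genes in ZT8 to ZT20 alone and 2 in ZT0 and ZT4 alone, where fewer libraries were fitted. With filters, median-of-ratios FPKM, ties kept or limma at an unadjusted p, the count was 1425 to 2318. Leaving out single libraries gave 1504 to 1991. The adjusted count of 127 became 29 with ties kept and 0 with columns as named, where 617 had an unadjusted p under 0.05. It was 59 to 132 without single libraries, and below 85 without ZT0 replicate 3 (59), ZT12 replicate 1 (61), ZT20 replicate 1 (62), ZT16 replicate 2 (63), ZT4 replicate 2 (76), ZT16 replicate 3 (79), ZT16 replicate 1 (80), ZT8 replicate 2 (82) or ZT12 replicate 3 (83). The 390 genes of the cosine fit ranged from 271 to 520 without single libraries. The 4 genes against -Trp DD became 12 with a pseudocount of 0.1, 7 with a mean of at least 1 FPKM and 7 with no filter, and 2 to 18 without single libraries, the highest without CT20 replicate 3 of -Trp DD. The cause was not tested. The 12 h test and the test against Ctrl LD gave 0 genes under every alternative run.

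Replicate numbers did not pair the libraries. Deviations from the time-point means correlated between equal numbers with a median r of -0.058, and with 0.015 between others. With the replicate block, limma called 2103 genes at an unadjusted p and 299 at an adjusted p, and 5 against -Trp DD. Of the 98 named genes that were called, 76 were called without each of the 18 libraries in turn, 93 with median-of-ratios FPKM, 89 with ties kept, and 0 with the columns as named. With 6 times over 1 cycle, a daily rhythm and a single change between times are not distinguished.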
